A study of Mus musculus with 141 samples.

Results

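The comparison described here is that of mRNA in the medial habenula (MHb) of mice 4 weeks after nicotine was taken away (NLWD) with mRNA in the MHb of mice that never received it (TAL). All libraries with these labels in the MHb were taken, 5 NLWD and 5 TAL libraries, out of 22 mRNA libraries from the MHb and 141 samples in the whole series. The mice were wild-type C57BL/6J males aged 6 weeks at the start. NLWD mice drank nicotine tartrate (200 µg/ml nicotine base) with saccharine (3 g/L) for 6 weeks, after which the bottles held tartaric acid with saccharine for 4 weeks of spontaneous withdrawal. TAL mice were matched to them in age and drank tartaric acid with saccharine for the whole 10 weeks. Each library was made from RNA pooled over tissue punches of 4 mice, so single animals cannot be told apart and the spread between libraries is a spread between pools. A punch also takes in tissue around the nucleus, and in such bulk RNA fewer cells of a type and less RNA per cell cannot be told apart.

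The medial habenula is a small paired nucleus at the dorsal edge of the thalamus. Its neurons send acetylcholine, glutamate and the tachykinins substance P and neurokinin B through the fasciculus retroflexus to the interpeduncular nucleus (IPN). The same neurons hold some of the highest densities of nicotinic acetylcholine receptors in the brain, built mainly from the α3 and β4 subunits, with α5, α4, β2, β3 and α6 in part of the cells. This path is known for its part in the aversive and somatic signs of nicotine withdrawal. The comparison asks whether a transcriptional difference from control mice is present long after the acute phase.

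The libraries carried several genes that mark this nucleus. Tac2, which encodes the precursor of neurokinin B, was at 419 to 719 TPM (a length-corrected share of the transcripts in a library, scaled to 1 total for all libraries) in the 10 libraries, and the receptor gene Gpr151 was at 34.9 to 78.4 TPM. Chrnb4 was at 13.3 to 33.1 TPM and the habenular transcription factor gene Pou4f1 at 12.9 to 86.8 TPM. In 10 libraries of the nucleus accumbens (NAc) from the same study, normalized in a separate table, Chrnb4 did not exceed 0.58 TPM and Pou4f1 did not exceed 0.07 TPM. Tac2 was at 17.5 to 91.3 TPM in the NAc. Tac1, the other tachykinin gene, went the opposite way, at 26.4 to 57.6 TPM in the MHb and 150 to 223 TPM in the NAc. Ttr, the transthyretin gene of the choroid plexus that lies against the habenula, was at 11126 to 62586 TPM in the MHb and at most 2.41 TPM in the NAc, and Isl1, another gene on the habenula list, was at 0 in 9 of the 10 MHb libraries. Mappable reads ranged from 37980565 to 58095277 in TAL and from 39273589 to 98890855 in NLWD. Correlations of log2(TPM + 1) between libraries lay between 0.963 and 0.988. The first principal component held 40.4% of the variance and set TAL replicate 2 and NLWD replicate 5, 1 library of each group, apart from the other 8. Both had the highest sums of channel genes in their group and the lowest shares of multiply mapped reads, 14.95% and 14.47% against 18.5% to 23.9% in the others. Main values rest on all 10 libraries, and those without this pair are given where they differ.

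Of 16956 genes tested, 1 passed the study's thresholds of an adjusted p below 0.01 and a change of more than 2-fold. That is 0.0059% of the genes tested, with 0 (0%) called higher and 1 (0.0059%) called lower in NLWD. The same gene was the only 1 (0.0059%) with an adjusted p below 0.05, and the next smallest adjusted p was 0.621. At an unadjusted p below 0.05 there were 1058 genes (6.24%), of which 648 (3.82%) were higher and 410 (2.42%) lower in NLWD. When the factor of unwanted variation was left out of the model, 413 genes (2.44%) had an unadjusted p below 0.05 and 0 (0%) were called. The 2 groups of 5 libraries did not overlap for 67 genes (0.395%), with NLWD higher for 44 (0.259%) and lower for 23 (0.136%). The log2 fold change was above 0 for 52.9% of genes, with a median of 0.01.

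**Figure D1:**
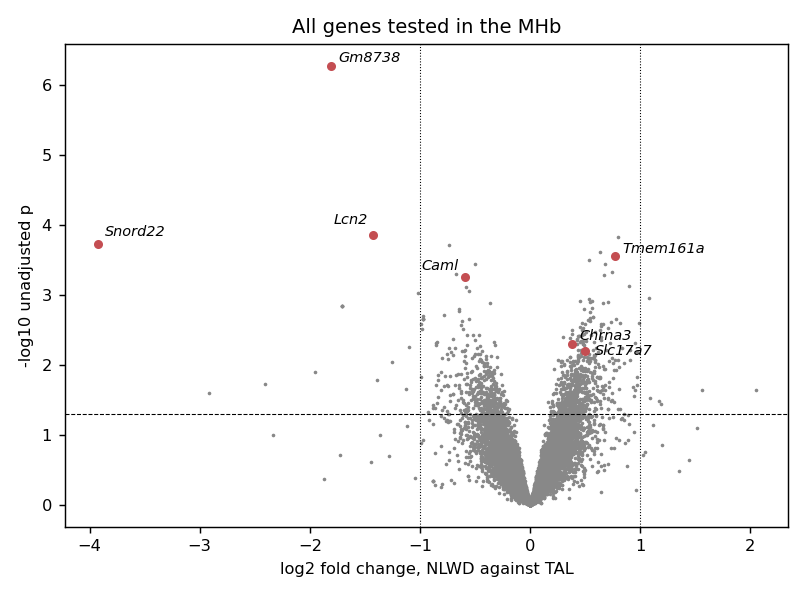
Log2 fold change of NLWD against TAL (x axis) and -log10 of the unadjusted p (y axis) for the 16956 genes tested in the MHb. Dotted lines mark a 2-fold change and the dashed line an unadjusted p of 0.05. Gm8738 stands alone at the top with a log2 fold change of -1.81, and Chrna3 and Slc17a7 lie within the upper part of the main cloud.

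The spread between libraries sets how large a difference could have gone unseen. The 95% interval of the log2 fold change lay wholly within a 2-fold change in either direction for 16136 genes (95.2%). Among the 6978 genes with a mean of at least 5 TPM in the higher group, this held for 6670 (95.6%), and their median interval reached 0.36 to either side of the estimate. Without the factor the share over all genes was 89.7%, and without the 2 libraries that stood apart it was 93.8%. Changes of more than 2-fold were thus outside the interval for most genes. Values near or below 1 TPM are compressed on the log2(TPM + 1) scale used, and with a pseudocount of 0.1 TPM the share was 66.1%. The compression also bears on the interval counts given below for gene lists.

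The called transcript was Gm8738, a processed pseudogene, that is, a copy of a spliced mRNA set back into the genome. It lies on the minus strand at chr11:103879915-103880243 (mm10), inside an intron of Nsf, which encodes a fusion ATPase of vesicle traffic and is read in the same direction. Its sequence is a copy of the coding part of Cisd1, which encodes mitoNEET, an iron-sulfur protein of the outer mitochondrial membrane. The 329 bases of the pseudogene align to the 327 bases of the Cisd1 coding sequence with 308 identical bases, 19 mismatches and 2 gap positions, so 94.2% of aligned bases agree. The first 150 bases of each, from the GENCODE transcripts of GRCm38, are shown so that the likeness of the called transcript to its source can be seen. Capitals mark the 8 positions where they differ:
Gm8738: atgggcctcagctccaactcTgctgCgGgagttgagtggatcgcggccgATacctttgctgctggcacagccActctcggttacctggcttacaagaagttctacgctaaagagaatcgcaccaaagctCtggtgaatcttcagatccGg
Cisd1: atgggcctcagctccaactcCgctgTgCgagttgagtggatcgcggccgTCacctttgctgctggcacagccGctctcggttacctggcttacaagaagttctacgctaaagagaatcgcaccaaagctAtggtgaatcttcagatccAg

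Gm8738 was at 2.55, 6.28, 1.62, 1.91 and 3.85 TPM in TAL replicates 1 to 5. In NLWD replicates 1 to 5 it was at 0, 0.26, 0.22, 0 and 0.60 TPM. Every TAL library was above every NLWD library. The log2 fold change was -1.81 ± 0.18 (SE, n = 5 and 5) with an adjusted p of 0.0090. The call was lost without the factor (adjusted p = 0.216), with 2 factors (0.0327), with a pseudocount of 0.1 TPM (0.0583), without TAL replicate 2 and NLWD replicate 5 (0.265), and on leaving out any library other than TAL replicate 3 (0.0214 to 0.072).

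The source of the copy and the surrounding gene did not pass the test. Cisd1 was at 180, 248, 168, 142 and 132 TPM in TAL and at 170, 150, 161, 142 and 181 TPM in NLWD, overlapping throughout (log2 fold change -0.12 ± 0.14, adjusted p = 0.903). Nsf was at 32.6 to 60.7 TPM in TAL and 32.6 to 68.5 TPM in NLWD (0.14 ± 0.15, adjusted p = 0.884). The authors' counts divide reads that fit several transcripts by an estimate, so the level of a pseudogene so much lower than its source depends on how those reads were divided. Whether this took part in the result was not tested. At 48 h of withdrawal the log2 fold change of Gm8738 was 0.07.

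The genes that came next did not pass the adjusted test, and are described by their values. The largest log2 difference among them was in Snord22, a small nucleolar RNA of the C/D box class. It lies within the host transcript Snhg1 at chr19:8725866-8725991 (mm10, plus strand), overlapping an annotated exon. Snord22 was at 91.5, 388, 86.8, 62.2 and 58.5 TPM in TAL and at 17.4, 0, 21.6, 3.78 and 11.8 TPM in NLWD. The groups did not overlap, and TAL replicate 2 was far above the other TAL libraries. The log2 fold change was -3.93 ± 0.73 with an adjusted p of 0.621.

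Several other short RNAs that carry no poly(A) tail were lower in NLWD. The 5S ribosomal RNA copies n-R5s118, n-R5s106 and n-R5s130 had identical values, since reads cannot be assigned to 1 of them, and count as a single measurement. Each was at 14.2, 5.05, 2.13, 4.27 and 1.94 TPM in TAL and at 1.01, 0, 0.90, 0.58 and 1.24 TPM in NLWD, with no overlap (log2 fold change -1.70 ± 0.41, adjusted p = 0.761). Rpph1, the RNA part of ribonuclease P that trims transfer RNA, was at 13.1, 24.0, 32.8, 15.2 and 16.2 TPM in TAL and at 12, 6.80, 10.8, 10.7 and 6.58 TPM in NLWD (-0.99 ± 0.26, adjusted p = 0.761). Rnu2-10, a copy of the spliceosomal U2 RNA named here after its values were seen, was at 14.8 to 31.1 TPM in TAL and at 7.29 to 15.3 TPM in NLWD, with a small overlap (-0.98 ± 0.25).

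The short RNA classes and the histone genes of this paragraph were chosen after values were seen, so they are a description and not separate evidence. By annotation class, all 21 small nuclear RNAs tested had a log2 fold change below 0, with a median of -0.88 against 0.01 for 14605 protein-coding genes. These 21 hold only 13 distinct sets of values, so they are not 21 independent measurements. The median is the value of Gm26444, Gm23804, Gm22068 and Gm22634, which are identical (-0.88 ± 1.14, adjusted p = 0.914). Gm22317, Gm25679 and Rnu1a1 repeat most of their values, so the 13 sets are not independent either. At an unadjusted p below 0.05, 7 small nuclear RNAs were lower in NLWD and 0 higher, against 328 lower and 544 higher protein-coding genes. The 7 small nuclear RNAs include Gm24950, Gm23971, Gm23849 and Rnu2-10, which have identical values and count as a single measurement. All 4 small Cajal body RNAs (median -0.70) and 6 of 7 ribosomal RNA genes were also below 0. The 7 hold only 4 distinct sets of values, since n-R5s118, n-R5s106, n-R5s130 and Gm24312 are identical, so their median of -1.70 is that 1 measurement repeated. The 15 small nucleolar RNAs were divided, with 7 below 0 and a median of 0.0039. Histone genes, many of whose mRNAs also lack a poly(A) tail, were divided too, with 12 of 21 below 0 and a median of -0.04. Whether the histone mRNAs measured here carried a tail is unknown. Summed over all its identifiers, small nuclear RNA ranged from 805 to 4211 TPM in TAL and from 654 to 1559 TPM in NLWD, and TAL replicate 2 was the highest. Without TAL replicate 2 and NLWD replicate 5, 18 of 23 small nuclear RNAs were below 0 and the median was -0.86. With 2 factors 18 of 21 were below 0. The libraries were made by poly(A) selection, so these RNAs are what was carried through it, and whether the yield of that step moved with the groups was not tested.

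Processed pseudogenes as a class did not follow Gm8738. Of 806 tested, 506 had a log2 fold change above 0, with a median of 0.04. At an unadjusted p below 0.05, 47 were higher in NLWD and 7 lower. Over all 16956 genes tested, 52.9% were above 0, and at that limit 648 (3.82%) were higher and 410 (2.42%) lower.

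**Figure D2:**
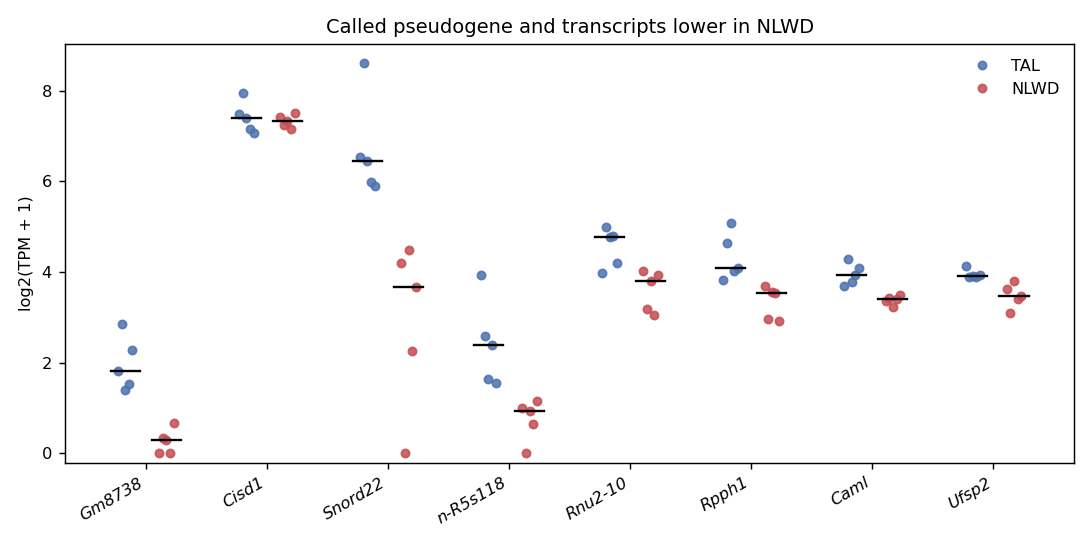
log2(TPM + 1) (y axis) of Gm8738, its source gene Cisd1 and transcripts with lower values in NLWD (x axis), in 5 TAL and 5 NLWD libraries, in the order of the replicates, each point a library and each bar a median. Gm8738, Snord22, n-R5s118, Rpph1, Caml and Ufsp2 do not overlap between groups, whereas Cisd1 overlaps throughout.

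Over all 16956 genes tested, the groups did not overlap with NLWD lower for 23 (0.136%) and with NLWD higher for 44 (0.259%). Predicted genes with Gm and Rik names were left aside here. Among the other protein-coding genes at 5 TPM or more, the groups did not overlap with NLWD lower for Caml, Ufsp2, Dalrd3 and Nt5c. Caml, whose product helps insert tail-anchored proteins into the endoplasmic reticulum, was at 11.9, 18.5, 12.7, 14.3 and 16.0 TPM in TAL and at 9.27, 9.84, 8.33, 9.66 and 10.4 TPM in NLWD. Its log2 fold change was -0.59 ± 0.13 (adjusted p = 0.673). Ufsp2, a protease that matures and removes the ubiquitin-like modifier UFM1, was at 13.8 to 16.5 TPM in TAL and 7.52 to 13.0 TPM in NLWD (-0.46 ± 0.15, adjusted p = 0.785). Dalrd3, which takes part in the methylation of transfer RNA, was at 40.3 to 56.3 TPM in TAL and 33.4 to 39.1 TPM in NLWD (-0.31 ± 0.12). The nucleotidase gene Nt5c was at 46.2 to 70.1 TPM in TAL and 40.6 to 45.5 TPM in NLWD (-0.31 ± 0.13). In these 4 genes the gap between the groups was small beside the spread within TAL.

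In the other direction only Gpn2, a GTPase gene linked to RNA polymerase assembly, met the same conditions. It was at 2.66, 4.01, 4.07, 4.26 and 3.88 TPM in TAL and at 5.20, 4.33, 4.86, 5.37 and 8.20 TPM in NLWD, and the groups all but met at 4.26 and 4.33 TPM (log2 fold change 0.42 ± 0.16, adjusted p = 0.785). The 4 genes with the smallest p and higher values in NLWD did overlap. Tmem161a was at 3.68 to 14.3 TPM in TAL and 9.90 to 35.9 TPM in NLWD (0.77 ± 0.15, adjusted p = 0.621). Armh4 was at 4.49 to 11.01 TPM in TAL and 8.24 to 18.0 TPM in NLWD (0.68 ± 0.14). Serinc1, a carrier-like gene linked to serine-derived lipids, was at 30.5 to 76.7 TPM in TAL and 51.4 to 183 TPM in NLWD (0.74 ± 0.15). Dok5, an adaptor of receptor tyrosine kinases, was at 3.22 to 5.37 TPM in TAL and 5.29 to 13.1 TPM in NLWD (0.67 ± 0.14). NLWD replicate 5 was the highest library for each of these 4 genes.

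Nicotinic receptor genes are the first to look at after nicotine. Of 14 members tested in this list, which also holds receptor chaperones, 6 were above 0 and 8 below, with a median log2 fold change of -0.02, and 0 were called. All 14 intervals lay within a 2-fold change, which says little for members below 1 TPM such as Chrna5 and Chrna6. Unadjusted p-values below 0.05 were found for 2 higher members and 0 lower ones. Chrna3, the α3 subunit, was at 13.1, 17.1, 14.0, 11.1 and 14.4 TPM in TAL and at 15.1, 18.2, 18.4, 18.0 and 27.6 TPM in NLWD. Of the NLWD libraries 4 were above all TAL libraries, and the groups overlapped through NLWD replicate 1 (log2 fold change 0.38 ± 0.11, adjusted p = 0.785). Tmem35a, the chaperone NACHO that assembles nicotinic receptors, was at 16.2 to 32.8 TPM in TAL and 22.6 to 43.7 TPM in NLWD (0.38 ± 0.10, adjusted p = 0.785).

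Chrnb4, the β4 subunit encoded beside Chrna3, was at 20.7, 28.1, 13.4, 13.3 and 26.3 TPM in TAL and at 16.9, 18.4, 23.8, 18.5 and 33.1 TPM in NLWD (0.05 ± 0.16, 95% interval -0.30 to 0.41). Chrnb3 was at 3.08 to 4.12 TPM in TAL and 3.39 to 8.09 TPM in NLWD (0.21 ± 0.17). Chrna4 was at 3.19 to 8.31 TPM in TAL and 3.58 to 9.56 TPM in NLWD (0.06 ± 0.17). Chrnb2, the usual partner of α4, was at 9.06 to 20.3 TPM in TAL and 9.36 to 38.8 TPM in NLWD (0.09 ± 0.17), its top value again in NLWD replicate 5. The ranges of these 4 subunit genes overlapped widely. Chrna5 did not exceed 0.56 TPM and Chrna6 did not exceed 0.37 TPM in any library, too low for a change to be seen on this scale. Chrna7 was above 0 in only 1 TAL library and was not tested.

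Genes that make, load and clear acetylcholine gave a list median of 0.17, with 8 of 12 above 0, 0 higher and 1 lower at an unadjusted p below 0.05. Chat, the synthesizing enzyme, was at 4.41, 3.30, 0.97, 1.86 and 3.55 TPM in TAL and at 2.58, 2.34, 7.69, 3.67 and 5.96 TPM in NLWD (0.43 ± 0.30, adjusted p = 0.825). Slc18a3, the vesicular transporter encoded within the same locus, was at 7.22 to 24.0 TPM in TAL and 10.4 to 37.2 TPM in NLWD (0.17 ± 0.16). The choline transporter gene Slc5a7 was at 1.07 to 1.99 TPM in TAL and 1.46 to 3.86 TPM in NLWD (0.32 ± 0.16, adjusted p = 0.794). Ache, which breaks acetylcholine down, was at 11.7 to 23.6 TPM in TAL and 15.5 to 29.4 TPM in NLWD (0.16 ± 0.11). The muscarinic receptor gene Chrm3 was the lower member, at 0.93 to 2.88 TPM in TAL and 0.55 to 1.40 TPM in NLWD (-0.45 ± 0.17, adjusted p = 0.785). The groups overlapped for all 5 genes.

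Both tachykinin genes overlapped between the groups. Tac2 was at 467, 719, 490, 419 and 499 TPM in TAL and at 439, 569, 477, 505 and 658 TPM in NLWD (log2 fold change -0.01 ± 0.11, 95% interval -0.26 to 0.23). Tac1, which encodes substance P, was at 26.4 to 50.5 TPM in TAL and 34.2 to 57.6 TPM in NLWD (0.12 ± 0.18). Tacr1, the substance P receptor, was at 4.38 to 10.3 TPM in TAL and 4.03 to 9.34 TPM in NLWD (-0.36 ± 0.19, adjusted p = 0.797).

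Genes that set the identity of the nucleus gave a median of 0.03 over 25 members, 13 above 0 and 12 below, and 24 of the 25 intervals lay within a 2-fold change. Pou4f1, which maintains the habenular fate, was at 12.9, 62.5, 16.9, 15.6 and 25.8 TPM in TAL and at 16.9, 27.0, 24.9, 25.1 and 86.8 TPM in NLWD (0.23 ± 0.19). Its extremes were TAL replicate 2 and NLWD replicate 5, the libraries that stood apart. Gpr151, a receptor of habenular axons, was at 34.9 to 78.4 TPM in TAL and 44.6 to 58.7 TPM in NLWD (0.03 ± 0.17). The nuclear receptor gene Nr4a2 was at 7.80 to 30.4 TPM in TAL and 12.3 to 30.6 TPM in NLWD (-0.11 ± 0.27), and the calretinin gene Calb2 was at 266 to 519 TPM in TAL and 284 to 791 TPM in NLWD (0.26 ± 0.17). The smallest p of the list belonged to Rprm, a cell cycle inhibitor, at 11.7 to 17.4 TPM in TAL and 13.6 to 38.1 TPM in NLWD (0.41 ± 0.15, adjusted p = 0.785).

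**Figure D3:**
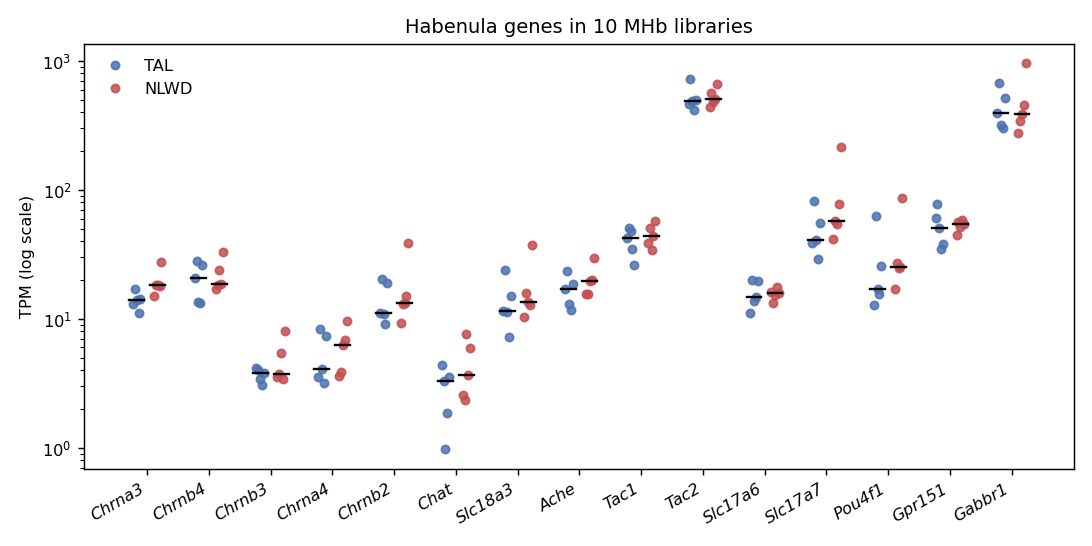
TPM on a log axis (y axis) of 15 receptor, transmitter and identity genes of the habenula (x axis) in 5 TAL and 5 NLWD libraries, in the order of the replicates, each point a library and each bar a median. The groups overlap for every gene, and TAL replicate 2 and NLWD replicate 5 give many of the highest points.

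GABA-B receptors with their KCTD partners, which raise transmitter release from habenular terminals, had a median of -0.08 over 5 genes. Gabbr1 was at 302 to 672 TPM in TAL and 275 to 960 TPM in NLWD (-0.08 ± 0.13), and Gabbr2 at 22.3 to 66.9 TPM in TAL and 27.7 to 73.9 TPM in NLWD (-0.18 ± 0.23). Kctd8 was at 5.39 to 16.0 TPM in TAL and 7.63 to 29.3 TPM in NLWD (0.35 ± 0.18, adjusted p = 0.794). Kctd12 was at 2.38 to 5.57 TPM in TAL and 2.22 to 7.52 TPM in NLWD (-0.12 ± 0.17). All 5 intervals lay within a 2-fold change.

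For glutamate, the other fast transmitter of these neurons, the list of release genes had a median of 0.01, with 8 of 15 above 0. Slc17a7, the vesicular transporter VGLUT1, was at 38.5, 82.5, 40.6, 28.9 and 55.5 TPM in TAL and at 41.4, 57.5, 54.9, 77.4 and 215 TPM in NLWD (0.50 ± 0.15, adjusted p = 0.785). The groups overlapped, and NLWD replicate 5 was far above the other NLWD libraries. Slc17a6, VGLUT2, was at 11.04 to 19.9 TPM in TAL and 13.3 to 17.6 TPM in NLWD (-0.02 ± 0.15). The astrocyte glutamate transporter gene Slc1a2 was at 20.6 to 56.1 TPM in TAL and 20.1 to 50.2 TPM in NLWD (-0.36 ± 0.14, adjusted p = 0.7895). Ionotropic glutamate receptors (median -0.06, 6 of 18 above 0) and GABA-A receptor and GABA genes (median -0.03, 7 of 20 above 0) held 0 members at an unadjusted p below 0.05.

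Channels for pacemaking and excitability had 16 of 41 members above 0 and a median of -0.08, and all 41 intervals lay within a 2-fold change. The 2 with an unadjusted p below 0.05 were both lower in NLWD. Scn8a, a sodium channel of the axon initial segment, was at 3.5 to 8.24 TPM in TAL and 2.75 to 7.84 TPM in NLWD (-0.39 ± 0.13), and the fast potassium channel gene Kcnc1 was at 5.05 to 20.8 TPM in TAL and 4.23 to 9.53 TPM in NLWD (-0.45 ± 0.18). Without the factor this list's median was 0.03, so its sign rests on the model, as do those of several other medians near 0, nicotinic receptor genes among them (0.05 without the factor).

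Receptors for serotonin, dopamine and noradrenaline had 16 of 21 members above 0, with a median of 0.10. The serotonin receptor gene Htr5b was at 5.09 to 11.8 TPM in TAL and 6.45 to 20.3 TPM in NLWD (0.42 ± 0.15, adjusted p = 0.785). Neuropeptide and opioid genes were divided, with 17 of 37 above 0 and a median of -0.0041. Among them Gal, the galanin gene, was at 3.69, 3.76, 3.02, 1.75 and 3.24 TPM in TAL and at 2.69, 1.02, 1.90, 1.68 and 0.21 TPM in NLWD (-0.75 ± 0.28, adjusted p = 0.785). Adcyap1r1, the PACAP receptor, was at 13.8 to 24.0 TPM in TAL and 9.78 to 20.0 TPM in NLWD (-0.39 ± 0.15). Pmch, the melanin-concentrating hormone gene, had the smallest p of the list at levels of 0 to 0.83 TPM in TAL and 0.39 to 1.60 TPM in NLWD (0.63 ± 0.17, adjusted p = 0.785).

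Immediate early genes, which follow recent neuronal firing, had 19 of 28 members above 0 and a median of 0.08, and 0 had an unadjusted p below 0.05. All 28 intervals lay within a 2-fold change, but members below 1 TPM can hardly go beyond it on this scale. Fos was at 0 to 1.24 TPM in TAL and 0.23 to 1.35 TPM in NLWD (0.16 ± 0.18), and Junb at 1.07 to 4.00 TPM in TAL and 1.40 to 5.22 TPM in NLWD (0.11 ± 0.20). Arc was at 1.94 to 5.03 TPM in TAL and 3.02 to 10.7 TPM in NLWD (0.13 ± 0.21), and Egr1 at 0.77 to 1.68 TPM in TAL and 0.22 to 2.22 TPM in NLWD (0.06 ± 0.24). Fosb and Npas4 were below 1 TPM in every library, as was Bdnf in all but 2.

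Glucocorticoid-induced genes, a readout of the stress hormone axis, were evenly divided, 10 above and 10 below 0, with a median of 0.01. Of its members, 1 lower and 1 higher had an unadjusted p below 0.05. Lcn2, the iron-carrier-binding lipocalin of acute inflammation, was at 2.5, 4.61, 0.96, 0.24 and 2.28 TPM in TAL and at 0.18, 0.05, 0, 0 and 0.23 TPM in NLWD. The groups did not overlap, by a margin of 0.24 against 0.23 TPM (-1.43 ± 0.26, adjusted p = 0.621). Sgk1, a kinase gene, went the other way, at 4.39, 9.04, 3.37, 4.01 and 3.53 TPM in TAL and at 6.25, 5.29, 7.22, 9.79 and 10.0 TPM in NLWD. Only TAL replicate 2 lay within the NLWD range (0.53 ± 0.17, adjusted p = 0.785). Fkbp5, a classic target of the glucocorticoid receptor, was at 2.11 to 2.36 TPM in TAL and 1.62 to 3.64 TPM in NLWD (0.07 ± 0.17). Circadian clock genes had a median of -0.03 over 20 members. Their lower members were Npas2, at 0.19 to 0.87 TPM in TAL and 0.11 to 0.40 TPM in NLWD (-0.29 ± 0.11), and Per2, at 0.53 to 1.57 TPM in TAL and 0.47 to 1.29 TPM in NLWD (-0.36 ± 0.16).

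The large housekeeping groups had medians close to 0. Nuclear genes of respiratory complex I had a median of 0.02 over 48 members, 26 above 0, and 47 intervals within a 2-fold change. Complexes II to V had a median of 0.02 over 42 members, with Cyc1 of complex III the only 1 at an unadjusted p below 0.05, at 86.1 to 222 TPM in TAL and 91.0 to 120 TPM in NLWD (-0.36 ± 0.15). Transcripts of the mitochondrial genome had a median of -0.04 over 15, and mt-Atp6 was at 1170 to 3117 TPM in TAL and 758 to 1271 TPM in NLWD (-0.56 ± 0.25). Cytosolic ribosomal protein genes had a median of 0.01 over 89 members, 48 above 0, and 0 at an unadjusted p below 0.05. Their summed level was 217478 to 270973 TPM in TAL and 216999 to 266373 TPM in NLWD. Mitochondrial ribosomal proteins (median -0.05 over 77), proteasome subunits (-0.03 over 37) and heat shock proteins (0.04 over 71) gave 1, 0 and 1 members at an unadjusted p below 0.05. These were Mrps5, at 12.6 to 31.8 TPM in TAL and 17.1 to 45.0 TPM in NLWD (0.41 ± 0.19), and Dnajc7, a co-chaperone, at 38.9 to 56.8 TPM in TAL and 33.0 to 41.1 TPM in NLWD (-0.34 ± 0.12).

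Genes of synaptic vesicle release had 12 of 32 members above 0 and a median of -0.05. Rab3c, a vesicle GTPase, was at 16.6 to 46.0 TPM in TAL and 13.0 to 24.4 TPM in NLWD (-0.51 ± 0.19), and the complexin gene Cplx2 was at 26.2 to 48.8 TPM in TAL and 23.5 to 44.3 TPM in NLWD (-0.37 ± 0.15). Rimbp2, which links calcium channels to release sites, was at 0.09 to 2.33 TPM in TAL and 0.49 to 5.02 TPM in NLWD (0.43 ± 0.17). Neurotrophin and neuritin genes had a median of -0.00017 over 17, and the receptor gene Ntrk3 was at 0.28 to 1.12 TPM in TAL and 0.58 to 3.83 TPM in NLWD (0.61 ± 0.25). Chromatin modifiers had a median of -0.04 over 34. Ezh2, a histone H3 methyltransferase, was at 0.43 to 2.34 TPM in TAL and 0.32 to 0.58 TPM in NLWD (-0.49 ± 0.18), Dnmt3a, a DNA methyltransferase, at 3.13 to 9.53 TPM in TAL and 2.78 to 7.41 TPM in NLWD (-0.34 ± 0.14), and Mta1 of the NuRD complex at 5.07 to 9.45 TPM in TAL and 6.08 to 20.4 TPM in NLWD (0.34 ± 0.15). Interferon-induced genes had a median of -0.05 over 20, with 0 at an unadjusted p below 0.05. Adjusted p-values of the genes in this paragraph were 0.785 to 0.7895, and all their groups overlapped.

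**Figure D4:**
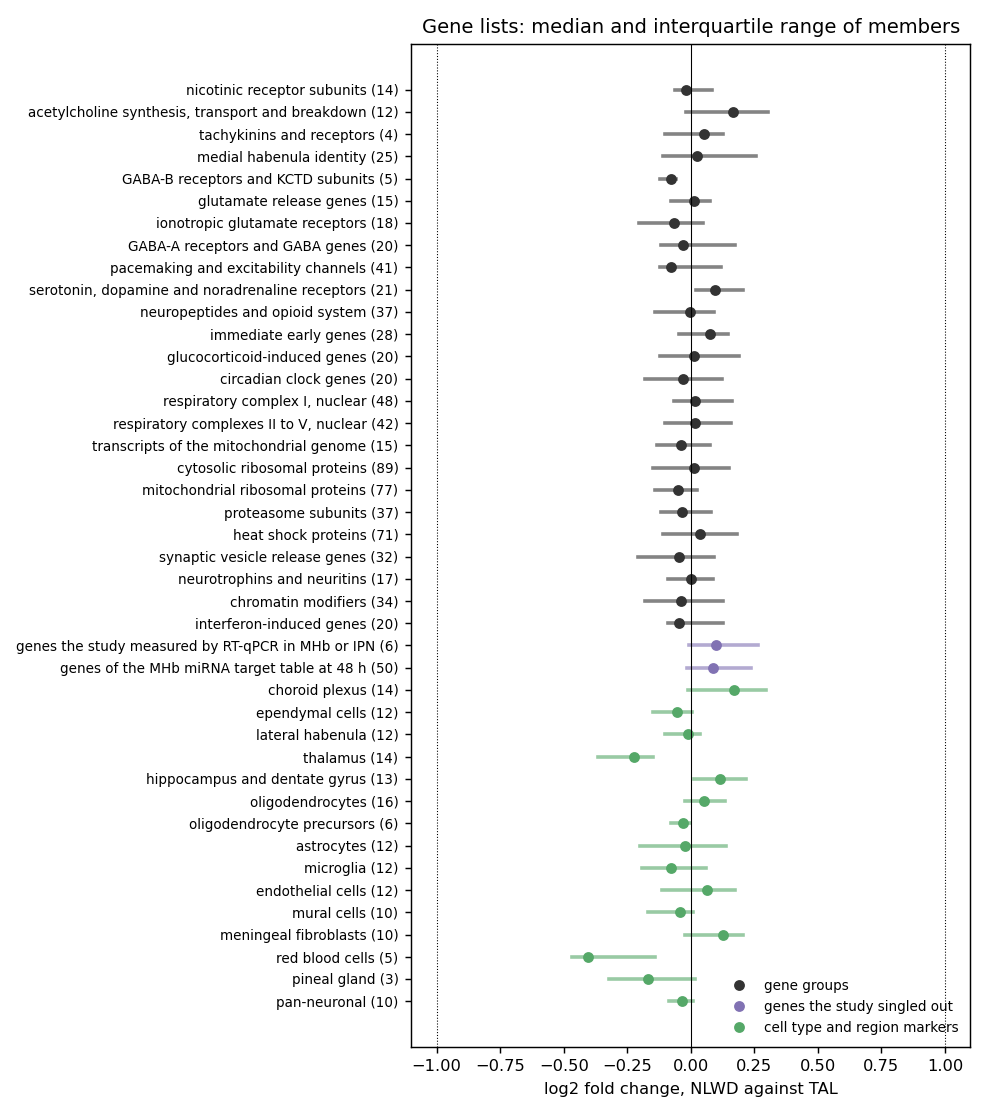
Median (point) and interquartile range (line) of the log2 fold changes of NLWD against TAL (x axis) for the tested members of 42 gene lists (y axis, number tested in parentheses). Dotted lines mark a 2-fold change. Medians lie close to 0, and the 2 farthest are red blood cells at -0.40 and thalamus at -0.23.

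Markers of other cells and regions show how alike the punches were. The 14 choroid plexus genes had a median of 0.17 and 10 above 0, and their summed level ran from 11311 to 62971 TPM in TAL and from 22720 to 38364 TPM in NLWD. Ttr made up nearly all of this sum, at 62586, 41632, 35623, 19976 and 11126 TPM in TAL and at 22443 to 37941 TPM in NLWD (-0.05 ± 0.39). The water channel gene Aqp1, with the smallest p of the list, was at 15.5, 9.91, 10.7, 7.19 and 9.56 TPM in TAL and at 13.6, 18.2, 16.4, 27.1 and 54.8 TPM in NLWD. Of the NLWD libraries 4 were above all TAL libraries (0.99 ± 0.26, adjusted p = 0.761). Otx2, a transcription factor of this epithelium, was at 6.12 to 8.24 TPM in TAL and 7.55 to 12.8 TPM in NLWD (0.35 ± 0.15). The part of choroid plexus tissue in the punches in these values was not tested.

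Thalamic markers were below 0 for 13 of 14 genes, with a median of -0.23 and 0 at an unadjusted p below 0.05. Their summed level was 50.4 to 212 TPM in TAL and 57.2 to 193 TPM in NLWD, so the groups overlapped throughout. Red blood cell genes were below 0 for 4 of 5, with a median of -0.40 and sums of 2909 to 7110 TPM in TAL and 2722 to 5721 TPM in NLWD. Lateral habenula markers had a median of -0.01 over 12 and hippocampal markers 0.11 over 13. Pan-neuronal genes had a median of -0.04 over 10, with sums of 572 to 907 TPM in TAL and 521 to 849 TPM in NLWD.

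Glial and vascular markers were divided in direction. Oligodendrocyte genes had a median of 0.05 over 16, with the myelin gene Mag at 20.0 to 56.1 TPM in TAL and 26.2 to 79.4 TPM in NLWD (0.33 ± 0.14). Precursor genes had a median of -0.03 over 6. Enpp6, which marks newly formed oligodendrocytes, was at 1.62, 0.54, 1.54, 1.09 and 1.81 TPM in TAL and at 0.47, 0.70, 0.16, 0.38 and 0.98 TPM in NLWD, and only TAL replicate 2 lay within the NLWD range (-0.58 ± 0.20, adjusted p = 0.785). Astrocyte genes had a median of -0.02 over 12, with 6 above and 6 below 0, and 2 higher and 1 lower at an unadjusted p below 0.05. The lower one was Slc1a2, described with the glutamate genes. The higher ones were the gap junction gene Gja1 at 8.76 to 13.2 TPM in TAL and 11.2 to 16.2 TPM in NLWD (0.32 ± 0.14) and the water channel gene Aqp4 at 2.93 to 7.94 TPM in TAL and 5.64 to 12.6 TPM in NLWD (0.40 ± 0.18). Microglial genes had a median of -0.08 over 12, with the complement gene C1qb at 21.5 to 45.3 TPM in TAL and 20.0 to 27.4 TPM in NLWD (-0.37 ± 0.13). Endothelial genes had a median of 0.07 over 12, with the tight junction gene Cldn5 at 6.34 to 17.1 TPM in TAL and 8.18 to 22.2 TPM in NLWD (0.37 ± 0.15). Ependymal (-0.06 over 12), mural (-0.04 over 10) and meningeal (0.13 over 10) lists held 0 members at an unadjusted p below 0.05. Of 3 pineal genes tested, Sag was at 2.65 to 5.72 TPM in TAL and 1.95 to 2.82 TPM in NLWD (-0.47 ± 0.18).

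The acute phase gave a different picture in the same nucleus. At 48 h of withdrawal (NAWD, 4 libraries) against tartaric acid for 6 weeks (TA, 4 libraries), 132 of 17013 genes (0.776%) were called by the same thresholds, 129 (0.758%) higher and 3 (0.0176%) lower. That model held 12 libraries, with 4 of mice still on nicotine (Nic) beside NAWD and TA, and 2 factors, whereas the 4-week model held 10 libraries and 1 factor, so the counts come from models of different form. With 2 factors 0 genes were called at 4 weeks. No library is shared between the 48 h and the 4-week comparisons. All mice began at 6 weeks of age, so NAWD and TA mice were younger at the end than NLWD and TAL mice. Time since withdrawal therefore cannot be told apart from age or set of libraries. All 132 genes were also tested at 4 weeks, and 0 were called there. The 129 had a median log2 fold change of 1.29 at 48 h and of 0.09 at 4 weeks. Since the 48 h values chose them, their size at 48 h is a description. At 4 weeks 86 of the 129 (66.7%) were above 0, beside 52.9% of all genes. At an unadjusted p below 0.05, 11 (8.53%) were higher, beside 3.82% of all genes. At the same limit 2 were lower, Sec61b (-0.75 ± 0.28) and Mien1 (-0.56 ± 0.21), beside 2.42% of all genes. All 129 were measured in the same libraries, so they are not independent of each other. The largest of the 129 changes at 4 weeks was 0.78, and for 127 genes the upper end of the 95% interval stayed below a 2-fold increase. The 3 genes lower at 48 h had a median of -1.33 then and 0.08 at 4 weeks.

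The genes below had the largest increases at 48 h among those at 5 TPM or more whose groups did not overlap then. Prkag1, a regulatory subunit of the energy-sensing kinase AMPK, was at 23.9 ± 27.9 TPM in TA and 172 ± 37.8 TPM in NAWD (SD, n = 4), with a log2 fold change of 2.95. At 4 weeks it was at 6.98, 14.9, 8.99, 7.63 and 9.53 TPM in TAL and at 7.77, 10.4, 12.3, 16.2 and 13.2 TPM in NLWD (0.23 ± 0.16, 95% interval -0.13 to 0.59). Tpi1, a glycolytic enzyme gene, was at 159.8 ± 118.1 TPM in TA and 990 ± 230 TPM in NAWD (log2 fold change 2.57). At 4 weeks it was at 156, 201, 166, 123 and 159 TPM in TAL and at 136, 134, 149, 171 and 145 TPM in NLWD (-0.15 ± 0.12, 95% interval -0.41 to 0.11). Both genes overlapped between the groups at 4 weeks.

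Arf5, a GTPase gene of Golgi traffic, had a log2 fold change of 2.43 at 48 h and was at 15 to 50.1 TPM in TAL and 24.2 to 35.5 TPM in NLWD (-0.02 ± 0.22). Mbd3, of the NuRD chromatin complex, had 2.19 at 48 h and was at 40.4 to 84.3 TPM in TAL and 45.5 to 76.8 TPM in NLWD (-0.20 ± 0.13). Pcolce2, an enhancer of collagen processing, had 2.52 at 48 h and was at 1.72 to 3.42 TPM in TAL and 2.36 to 6.35 TPM in NLWD (0.52 ± 0.22, unadjusted p = 0.0362). It was the only 1 of these 10 with an unadjusted p below 0.05 at 4 weeks. The others of the 10 were Adnp (2.49 at 48 h and -0.43 at 4 weeks), Tradd (2.38 and -0.06), Islr (2.31 and 0.28), Myl9 (2.23 and 0.01) and Rasd1 (2.20 and -0.17). Of the lower genes, Gm15564 went from -1.62 to 0.58 and 1810037I17Rik from -1.15 to 0.08, with 95% intervals at 4 weeks that include 0. The other, 3300002I08Rik, was below 5 TPM in TA and is named here after its values were seen. It was at 3.56 ± 1.33 TPM in TA and 0.78 ± 0.22 TPM in NAWD (SD, n = 4), a log2 fold change of -1.33, and at 4 weeks its estimate was still below 0 (-0.30 ± 0.29, 95% interval -0.94 to 0.35).

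**Figure D5:**
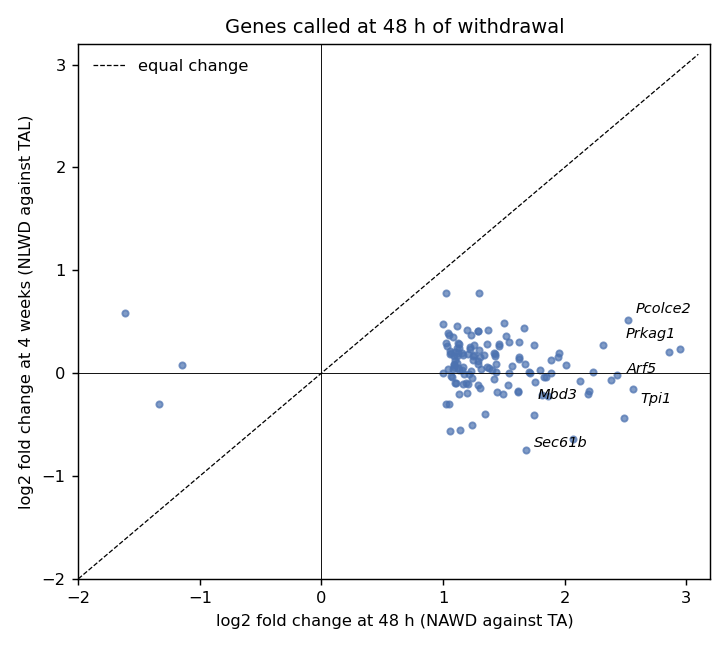
Log2 fold change at 48 h of withdrawal (x axis, NAWD against TA) and at 4 weeks (y axis, NLWD against TAL) for the 132 genes called at 48 h, each point a gene. The dashed line marks equal change. All 129 genes that were higher at 48 h lie below it, with a median of 0.09 at 4 weeks.

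Some genes had been chosen for RT-qPCR in the MHb or the IPN. Their median log2 fold change was 0.10 over 6 genes at 4 weeks, with 0 called. This list was chosen from the acute libraries of the same study. Eif5a, a translation factor gene, had a log2 fold change of 1.44 at 48 h and was at 59.2 to 147 TPM in TAL and 68.2 to 97.8 TPM in NLWD (-0.19 ± 0.12). The survival gene Bcl2l1 had 1.16 at 48 h and was at 17.01 to 52.3 TPM in TAL and 22.6 to 71.8 TPM in NLWD (0.18 ± 0.12). Atg7, needed for autophagy, had 1.19 at 48 h without being called, and 0.33 ± 0.26 at 4 weeks. Pfn2, which encodes profilin 2, an actin regulator, was at 45.5, 89.9, 47.6, 54.8 and 73.4 TPM in TAL and at 53.8, 60.6, 56.6, 114 and 154 TPM in NLWD (0.29 ± 0.18, adjusted p = 0.821). The groups overlapped for all 4 genes. The 50 genes of the study's MHb target list at 48 h, chosen in the same way, had a median of 0.09, with 35 above 0 and 5 higher at an unadjusted p below 0.05. Of all genes tested, 52.9% were above 0 and 3.82% were higher at that limit. The list shares members with the 129 genes above, Pcolce2 and Arf5 among them, so it is not separate evidence.

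The difference between the changes at the 2 times was tested in 1 model of 18 libraries. It leaves out a difference in age or sequencing run between TA and TAL only where that adds up on the log scale. Of 16352 genes, 45 (0.275%) had a called difference, 43 (0.263%) with a lower change at 4 weeks and 2 (0.0122%) with a higher one. The same NAWD and TA libraries chose the 48 h genes and enter this test, so the 42 of the 45 that were called at 48 h are not independent evidence. Smallest p-values belonged to Mbd3 (difference -2.47), Tom1l1 (-2.35), Dnajc9 (-1.85), Tpi1 (-2.85) and Rpa1 (-1.58). The differences with a higher change at 4 weeks were in Arl10, an ARF-like GTPase gene (1.58), and Usb1, which trims U6 RNA (1.07). Arl10 was at 5.90 to 20.4 TPM in TAL and 8.77 to 58.4 TPM in NLWD (0.66 ± 0.16 at 4 weeks, adjusted p = 0.761), and Usb1 at 9.88 to 31.8 TPM in TAL and 13.7 to 46.2 TPM in NLWD (0.35 ± 0.13, adjusted p = 0.785). Without factors 1 gene, Tpi1, had a called difference. The count of 45 was 19 without TAL replicate 3, 22 without NLWD replicate 1 or without NLWD replicate 2, and 20 without NLWD replicate 5.

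In the NAc, a region outside this circuit, 0 of 17972 genes (0%) were called for NLWD against TAL in the same model, and 2003 (11.1%) had an unadjusted p below 0.05. Without the factor 108 (0.601%) were called in the NAc, beside 0 in the MHb. The difference between the changes in the 2 regions was called for 0 of 16336 genes (0%), with a smallest adjusted p of 0.533 and 1269 genes (7.77%) at an unadjusted p below 0.05. Without factors it was called for 0 (0%), with 2895 genes (17.7%) at an unadjusted p below 0.05. No gene is thus shown to have changed in 1 region and not in the other.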

How the data were processed

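Punched tissue was pooled over 4 mice per library. The authors took RNA longer than 30 nt from a gel, made stranded poly(A)-selected libraries, aligned paired reads to mm10 with STAR 2.5.3a and deposited TPM values from RSEM 1.3.0, together with whole-number counts of input and mapped read pairs per library. TPM keeps no read counts, so no count model could be used, and the depth behind a single value is unknown. The authors tested with DESeq2 1.14.1 and RUVSeq. Their comparison columns, which hold fold changes and p-values, were not used.

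A gene entered the fit if its TPM exceeded 0 in a share of 0.5 or more of the TAL and of the NLWD libraries. log2(TPM + 1) was fitted with limma 3.58.1 (trend) in R 4.3.3, with 1 factor of unwanted variation estimated from differences among libraries of a group (2 in models of more groups). The number of factors the study itself removed was not used here. Fold changes are on this log2(TPM + 1) scale and understate changes of low genes. Calls needed a Benjamini-Hochberg adjusted p below 0.01 and a change over 2-fold. Values after ± are standard errors beside fold changes and SD beside TPM means. All tests were two-sided, and the fit of NLWD against TAL was checked on simulated data. Gene symbols matched 42462 of 43432 identifiers. Positions are from GENCODE M21 (GRCm38).

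The comparison and the 42 gene lists were chosen with earlier results of these data known. Genes named were those called, and those of smallest p at 5 TPM or more outside Gm and Rik names (up to 10 per direction without overlap, filled to 5). Also named were a fixed list of habenular and activity genes, up to 4 per list by p, and those of the largest change at 48 h or called difference. Exceptions are marked, and Cisd1 and Nsf were added after the values of Gm8738 were seen. The values of 1 gene that this rule names are not reported here.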

Additional observations from a re-analysis of the deposited data

Results flagged for a closer look

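In groups of 5 libraries, a library was singled out where its gap to the nearest other was large beside the group's whole range (Dixon's test at the 95% level). This was so for 34 of 216 groups examined, of which NLWD replicate 5 gave 17, TAL replicate 2 gave 11, TAL replicate 1 gave 5 and NLWD replicate 1 gave 1. For independent, normally distributed values the 95% level would flag about 1 in 20 groups. The genes examined share libraries and were partly chosen by p, and TPM was used without a log. That rate therefore does not apply here.

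NLWD replicate 5 was the highest of its group for Gpn2 (8.20 TPM), Tmem161a (35.9), Chrna3 (27.6), Chrnb2 (38.8), Slc18a3 (37.2), Pou4f1 (86.8), Kctd8 (29.3), Gabbr1 (960.0), Slc17a7 (215), Scn8a (7.84), Fosb (0.45), Arc (10.7), Per2 (1.29), Rimbp2 (5.02), Dnmt3a (7.41), Arl10 (58.4) and Usb1 (46.2). TAL replicate 2 was the highest for Snord22 (388 TPM), Armh4 (11.01), Chrna5 (0.56), Tac2 (719), Pou4f1 (62.5), Kctd8 (16.0), Sgk1 (9.04), Dnmt3a (9.53), Eif5a (147), Arl10 (20.4) and Usb1 (31.8). Both libraries stood apart from the other 8 on the first principal component, and the genes examined were those named in the text, many of them picked from neuronal lists. TAL replicate 1 was the highest for n-R5s118, n-R5s106 and n-R5s130 (14.2 TPM each, 1 set of values) and Ufsp2 (16.5), and the lowest for Gpn2 (2.66). NLWD replicate 1 was the lowest for Gm15564 (0.66 TPM).

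The change at 4 weeks differed from that at 48 h, in the test of the difference, for 13 genes named. The naming rule picks genes for a large change at 48 h or a called difference. The same NAWD and TA libraries enter the test, so these differences follow in part from the choice. Without factors 1 gene, Tpi1, had a called difference. The difference in log2 fold change was -2.47 for Mbd3, -2.35 for Tom1l1, -1.85 for Dnajc9, -2.85 for Tpi1, -1.58 for Rpa1, -2.41 for Tradd, -2.50 for Arf5, -1.60 for Eif5a, -2.06 for Islr, -2.87 for Prkag1 and -2.19 for Pcolce2. It was 1.58 for Arl10 and 1.07 for Usb1.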

How the results depend on the processing

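The count of called genes was 1, and fell to 0 with a pseudocount of 0.1 TPM, a minimum mean of 1 TPM, no filter, no factors, 2 factors, a factor from residuals, the replicate block, all MHb groups in the model, and, both chosen after seeing the data, without TAL replicate 2 and NLWD replicate 5 or with TPM rescaled over protein-coding genes, where Gm8738 was not among the genes tested. Leaving out single libraries gave 0 to 1. The count at an adjusted p below 0.05, and the same count among named genes, was 1 and became 0 with the pseudocount of 0.1 TPM, no filter, no factors, all MHb groups, the 8 libraries and the rescaling, and 0 to 1 with single libraries left out. At an unadjusted p below 0.05 there were 1058 genes, 413 without factors and 440 with the replicate block, and 740 to 1298 with single libraries left out. Of these genes 61.2% were higher in NLWD, against 82.5% (1194 higher, 253 lower) with a factor from residuals and 71.2% (756 and 306) with the pseudocount of 0.1 TPM. Lists with a median beyond 0.1 in either direction numbered 7, and 13 with the pseudocount, 11 with the minimum mean, and 12 each without factors, with a factor from residuals and with the block. Single libraries left out gave 7 to 15. Called differences between times numbered 45, 1 without factors, and 19 to 51 with single libraries left out.

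Of 108 genes named and tested, 81 kept their sign under all 23 alternatives. A change of direction was counted only at an adjusted p below 0.05 in either fit, and 0 were counted. Apart from Gm8738, 0 named genes reached that limit in any setting, so for the others this count was fixed in advance. Correlations of same-numbered deviations ran from -0.15 to 0.17, so no clear pairing by replicate number was seen. Such values cannot show that none was present. The adjusted p of Gm8738 was 0.0348 with the replicate block, and only numbers 1 and 5 correlated best with their own number. Read depth per gene is unknown, so low values carry an error that could not be stated.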
